A study of Mus musculus with 16 samples.

Results

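The 6 genes described here, Cck, Ptprn, Cpne4, Tnfsf11, Ptgdr and AU015791, were chosen by their measured read counts for a large rise in thyroid glands that lack functional GLIS3. They are 6 of the 25611 rows of the deposited table and 6 of the 16630 genes that passed the filter on low counts, and all 6 passed it. Because the choice rested on the difference between knockout and wild-type glands, that difference is given below as a description with its standard error and with no test, on either diet. The effect of diet within a genotype was not what the genes were chosen on and was tested, although the mice compared there had also entered the choice. Choice on values that were high in knockout or low in WT glands on a single diet favours a diet effect within that genotype. The p-values for diet in these genes can therefore be too small.

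RNA-Seq was carried out on thyroid glands of female C57BL/6 mice of 1 month in 4 groups of 4 mice. WT(ND) and WT(LID) mice are labelled only as wild type. Both knockout groups, Glis3-Pax8Cre(ND) and Glis3-Pax8Cre(LID), carried the conditional allele Glis3<tm2Amj> with the Cre allele Pax8<tm1.1(cre)Mbu>, on a background labelled B6;129. ND was the NIH-31 normal diet and LID the iodine-poor diet TD.95125, which the study fed for 6 days after weaning at 3 weeks. Cre deletes exon 5 of Glis3, which encodes zinc fingers 3 and 4, and it does so only where Pax8 is active, so the other cell types of the gland keep an intact gene. The labels do not say whether the WT mice carried the floxed or the Cre allele.

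GLIS3 is a zinc finger transcription factor of thyroid follicular cells that is needed for the expression of iodide handling genes such as Slc5a5, the sodium iodide symporter. Iodine shortage raises TSH, which acts on follicular cells through its receptor and cyclic AMP. The study reported slightly elevated serum TSH in knockout mice on ND, and on LID a greater TSH rise in knockout than in WT mice. The part of TSH in the genotype differences below was not tested. Of the genes described, Cck encodes the prohormone of cholecystokinin, a peptide best known from gut and brain, and Ptprn encodes IA-2, a membrane protein of the dense-core vesicles in which endocrine cells store peptide hormones. Cpne4 encodes copine 4, a calcium-dependent membrane-binding protein. Tnfsf11 encodes RANKL, the ligand of the receptor RANK, and Ptgdr encodes a receptor for prostaglandin D2. AU015791 is annotated as a long intergenic non-coding RNA, and no role is given for it here.

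Promoter sequences were looked up in the RefSeq table of GRCm38.p6, which holds windows for 5 of the 6 genes (7 windows in all) and none for AU015791. The stretches of the 2 genes that rose most on LID in knockout glands, Cck and Ptprn, and of Cpne4, the only one of the 5 genes with the letters of a GLIS site, are shown. Each runs from position -200 to -1 before the start site, 5′ to 3′ on the strand of the gene, and lies at chr9:121495695-121495894 on the minus strand for Cck, at chr1:75264209-75264408 on the minus strand for Ptprn and at chr9:104569455-104569654 on the plus strand for Cpne4. Capitals mark a CRE core (TGACG, or CGTCA on the opposite strand), an E-box (CACGTG) or a GLIS core (TGGGGGGT, or ACCCCCCA on the opposite strand).
Cck: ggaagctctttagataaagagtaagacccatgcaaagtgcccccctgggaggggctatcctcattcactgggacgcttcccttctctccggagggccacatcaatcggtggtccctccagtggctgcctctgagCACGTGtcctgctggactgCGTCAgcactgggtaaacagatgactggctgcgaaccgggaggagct
Ptprn: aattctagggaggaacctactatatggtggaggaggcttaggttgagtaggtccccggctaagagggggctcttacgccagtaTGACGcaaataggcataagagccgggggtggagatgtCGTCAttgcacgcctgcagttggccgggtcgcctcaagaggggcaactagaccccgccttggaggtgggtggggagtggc
Cpne4: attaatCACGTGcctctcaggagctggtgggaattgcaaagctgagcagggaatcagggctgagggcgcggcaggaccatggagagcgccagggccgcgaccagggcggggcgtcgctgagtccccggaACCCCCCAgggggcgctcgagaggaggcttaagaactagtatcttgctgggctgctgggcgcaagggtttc
Both Cck (at -47) and Ptprn (at -117 and -80) held a CRE core, the letters shared by sites of cyclic AMP response factors. Over the whole windows, 20.8% of the 32851 promoters in the table held it, so it is common. The full palindrome TGACGTCA, found in 1.79% of promoters, was in none of the 7 windows. Cck and Cpne4 each held an E-box, at -66 and -194, as did 7.15% of promoters. Cpne4 held the GLIS core at -71, which 1.53% of promoters held, and a CRE core that begins at -1 and runs into the transcript, so it is not marked. The start site of this Cpne4 window lies inside the gene row, which begins at chr9:104566676. The other windows of Ptprn and Cpne4 held none of these letters. The windows of Tnfsf11 and Ptgdr held none of these letters, which says only that they are not within those bases.

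Total counts ranged from 13892352 to 461077969 read pairs per mouse. Slc5a5 lay between 8.43 and 20.2 CPM (the normalised read count, scaled by TMM) in the 8 knockout mice and between 81.8 and 2178 CPM in the 8 WT mice, so every library matched its genotype label by this gene. The lowest WT value, 81.8 CPM, was that of WT(ND) replicate 3, and the other WT(ND) mice were at 132 to 187 CPM. Counts over the whole Glis3 gene, from 45.2 to 174 CPM in WT and from 85.8 to 204 CPM in knockout glands, cannot show the loss of a single exon. The library labelled WT(ND) replicate 3 stood apart. Its Pax8 level was 996 CPM against 374 to 397 CPM in the other WT(ND) mice and 643 to 989 CPM in Glis3-Pax8Cre(ND). Of 702 genes that were higher in Glis3-Pax8Cre(ND) than in the other 3 WT(ND) mice by at least 1 log2 unit without overlap, 48.9% lay nearer the knockout mean in this library, and of 653 genes that were lower 45.2% did so. With each other WT(ND) mouse in its place, these shares were 4.13% to 5.66% and 2.32% to 14.6%. Values that rest on this library are therefore given with and without it, and the reason for its position was not tested.

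**Figure D1:**
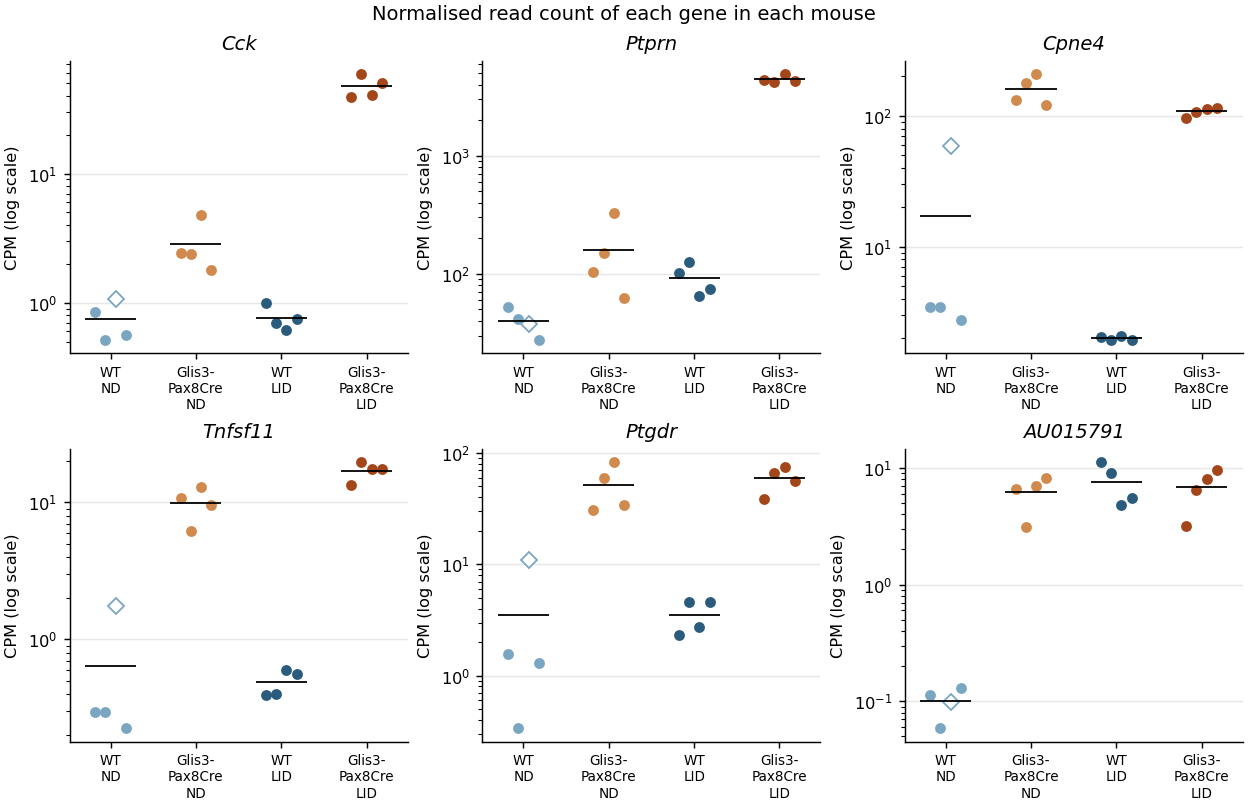
Normalised read count (CPM, log scale) of each gene, with 1 point per mouse, 4 mice per group and a line at the group mean; the open diamond is WT(ND) replicate 3. Cck and Ptprn are far higher in Glis3-Pax8Cre(LID) than elsewhere, Cpne4, Tnfsf11 and Ptgdr are high in knockout mice on both diets, and AU015791 is low in WT(ND) mice alone.

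The 6 genes followed 3 patterns over the 4 groups. Cck and Ptprn were moderately higher in knockout glands on ND and far higher on LID. Cpne4, Tnfsf11 and Ptgdr were high in knockout glands on both diets. AU015791 was at a like level in knockout glands on either diet and in WT glands on LID, and was low in WT(ND) glands alone. The Glis3-Pax8Cre(LID) mice lay above every WT(LID) mouse for 5 of the 6 genes, where 17.7% of all genes tested did so, and the Glis3-Pax8Cre(ND) mice lay above every WT(ND) mouse for 6 of 6, where 9.58% of all genes did so. Since the genes were chosen for this rise, nothing is read from these counts, but AU015791 did not share the rise on LID. The median log2 fold change of knockout against WT was 5.37 on LID and 3.56 on ND, against 0.01 and 0.02 over all genes, and the value on ND was 5.41 without WT(ND) replicate 3. Values are from whole glands, in which a change in the number of cells of a type and a change in RNA per cell cannot be told apart.

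Cck was at 0.855, 0.513, 1.07 and 0.560 CPM in the WT(ND) mice (replicates 1 to 4, as in all such lists). In WT(LID) it was at 0.991, 0.703, 0.611 and 0.750 CPM, so the WT groups overlapped. Its level was 2.45, 2.38, 4.80 and 1.80 CPM in Glis3-Pax8Cre(ND), where each mouse lay above all WT mice. In Glis3-Pax8Cre(LID) it reached 39.4, 58.6, 40.7 and 50.6 CPM. Means were 0.750 ± 0.263, 0.764 ± 0.162, 2.86 ± 1.32 and 47.3 ± 9.02 CPM in this order (SD, n = 4). Every Glis3-Pax8Cre(LID) mouse thus lay far above all other mice, and the group mean was 16.6 times the mean of Glis3-Pax8Cre(ND) and 62.0 times that of WT(LID). On the log2 scale Cck differed between genotypes by 5.95 (standard error 0.34) on LID and by 1.95 (0.30) on ND.

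The diet effect on Cck was seen in knockout glands. LID raised Cck in Glis3-Pax8Cre mice by a log2 fold change of 4.04 (95% interval 3.38 to 4.71, adjusted p = 1.08e-06, quasi-likelihood test in edgeR, with p-values adjusted over all genes). In WT mice the log2 fold change was 0.05 (-0.60 to 0.70, adjusted p = 0.915), so no diet effect was called there. The diet effect was larger in knockout glands by 3.99 log2 units (standard error 0.42). This difference is built from the values that chose the gene and was not tested.

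For Ptprn the WT(ND) mice had 52.6, 41.2, 37.6 and 27.4 CPM, and the level was 101, 125, 65.1 and 74.1 CPM in WT(LID), where every mouse lay above every WT(ND) mouse. Glis3-Pax8Cre(ND) mice ranged more widely, at 103, 150, 325 and 62.4 CPM, and overlapped with WT(LID). In Glis3-Pax8Cre(LID) the 4 mice were close together at 4392, 4223, 4891 and 4307 CPM. The means of the 4 groups in the order given were 39.7 ± 10.4, 91.4 ± 27.2, 160 ± 116 and 4453 ± 300 CPM (SD, n = 4). The genotype difference on the log2 scale was 5.61 (standard error 0.46) on LID and 2.02 (0.40) on ND, and the latter was 1.41 without Glis3-Pax8Cre(ND) replicate 3, the mouse at 325 CPM.

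LID raised Ptprn in both genotypes, and far more in knockout glands. The log2 fold change was 4.80 (95% interval 3.84 to 5.75, adjusted p = 7.89e-06) in Glis3-Pax8Cre mice, 27.8 times by the means. In WT mice it was 1.20 (0.38 to 2.03, adjusted p = 0.0217), 2.30 times by the means. The WT call was lost without WT(ND) replicate 3 (log2 fold change 1.19, adjusted p = 0.0515), without WT(ND) replicate 4 (1.06, 0.0658) and without WT(LID) replicate 2 (1.02, 0.0675). The knockout value exceeded the WT value by 3.59 log2 units (standard error 0.56), which was not tested. Counts were taken without regard to strand, and Ptprn overlaps the antisense gene Gm28294, which has no row of its own, so reads of the pair cannot be told apart.

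**Figure D2:**
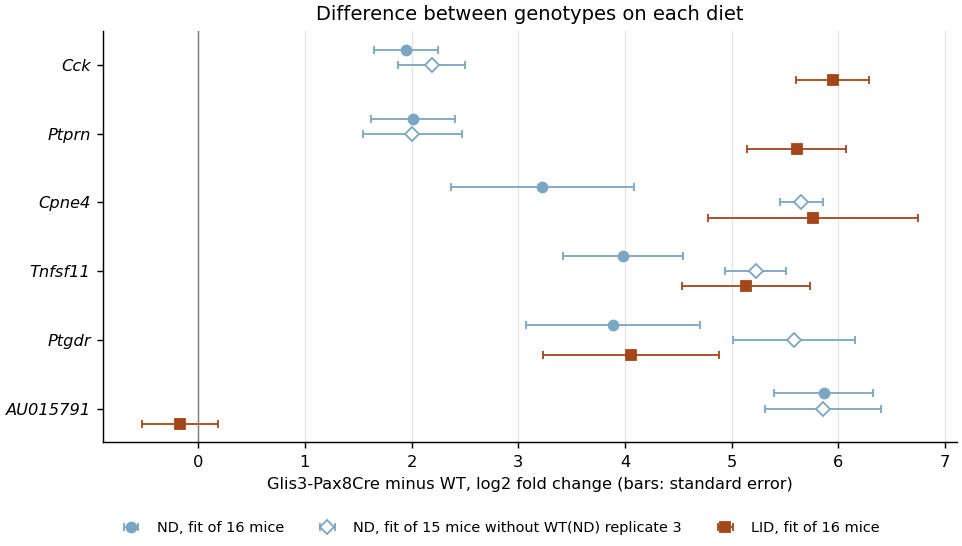
Log2 fold change of Glis3-Pax8Cre over WT on ND (circles, and open diamonds without WT(ND) replicate 3) and on LID (squares), with standard errors from the edgeR fit. Cck and Ptprn differ more on LID than on ND, Cpne4, Tnfsf11 and Ptgdr lie between 3.22 and 5.76 on both diets, and AU015791 differs on ND (5.86) and is at -0.17 on LID.

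Cpne4 was high in all 8 knockout glands. In WT(ND) it was at 3.49, 3.48, 59.1 and 2.74 CPM, the third value being that of the library that stood apart. WT(LID) mice were at 2.05, 1.94, 2.07 and 1.93 CPM and lay below all WT(ND) mice. Glis3-Pax8Cre(ND) mice were at 132, 180, 208 and 120 CPM, and Glis3-Pax8Cre(LID) mice, all below them, at 97.2, 107, 113 and 116 CPM. Mean levels were 17.2 ± 27.9 CPM in WT(ND) (3.24 ± 0.43 without replicate 3, n = 3), 1.996 ± 0.070 in WT(LID), 160 ± 40.9 in Glis3-Pax8Cre(ND) and 108 ± 8.24 in Glis3-Pax8Cre(LID). The log2 genotype difference was 5.76 (standard error 0.98) on LID. On ND it was 3.22 (0.86), or 5.65 (0.20) without WT(ND) replicate 3.

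The effect of LID on Cpne4 turned on that library and on the fit. With all 16 mice the log2 fold change of LID over ND was -3.10 in WT mice (95% interval -5.01 to -1.19, adjusted p = 0.0130) and -0.56 in knockout mice (-2.26 to 1.14, adjusted p = 0.631). Without WT(ND) replicate 3 it was -0.68 in WT mice (-1.04 to -0.32, adjusted p = 0.00549) and -0.57 in knockout mice (-0.88 to -0.27, adjusted p = 0.00974). The call in knockout mice was made with the replicate number as a block within the 8 knockout mice (-0.54, adjusted p = 0.0452), but not in those 8 mice without the block (-0.57, adjusted p = 0.0529) or with the block in all 16 mice (-0.47, adjusted p = 0.661). The call in WT mice was lost in the 8 WT mice alone (-3.09, adjusted p = 0.0570). It was also lost with the block in all 16 mice (-2.17, adjusted p = 0.0627) and within the 8 WT mice (-1.58, adjusted p = 0.192).

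Tnfsf11 was low in WT glands, at 0.294, 0.293, 1.75 and 0.225 CPM on ND and 0.391, 0.402, 0.593 and 0.555 CPM on LID. Apart from WT(ND) replicate 3, the WT(ND) mice lay below the WT(LID) mice. Knockout glands held 10.7, 6.21, 12.96 and 9.62 CPM on ND and 13.4, 19.5, 17.6 and 17.6 CPM on LID, with every LID mouse above every ND mouse. Means were 0.641 ± 0.741 CPM in WT(ND) (0.271 ± 0.040 without replicate 3, n = 3), 0.485 ± 0.104 in WT(LID), 9.88 ± 2.81 in Glis3-Pax8Cre(ND) and 17.0 ± 2.59 in Glis3-Pax8Cre(LID). The log2 genotype difference was 5.14 (standard error 0.60) on LID and 3.98 (0.56) on ND, or 5.23 (0.29) on ND without that library.

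No diet effect on Tnfsf11 was called with all 16 mice. The log2 fold change of LID over ND was -0.37 in WT mice (95% interval -1.53 to 0.80, adjusted p = 0.626) and 0.79 in knockout mice (-0.27 to 1.85, adjusted p = 0.258). Without WT(ND) replicate 3 the WT value changed sign to 0.87 (0.32 to 1.42, adjusted p = 0.0147), and the knockout value was 0.78 (0.34 to 1.21, adjusted p = 0.0126). In the 8 knockout mice with the replicate number as a block it was 0.82 (adjusted p = 0.0360). RANKL is also made by lymphocytes. The summed level of 10 thymocyte markers ran from 8.79 to 170 CPM in WT(ND), from 4.56 to 242 CPM in WT(LID), from 11.5 to 2901 CPM in Glis3-Pax8Cre(ND) and from 8.20 to 357 CPM in Glis3-Pax8Cre(LID), and none of them was at 0 in a whole group. The highest sum was in Glis3-Pax8Cre(ND) replicate 4, whose Tnfsf11 level of 9.62 CPM lay within the range of the other 3 mice of its group. The median log2 fold change of the 10 markers in knockout against WT glands was 3.59 on ND and 0.62 on LID, with 0 higher and 0 lower by the test on either diet. The median sum on ND was lower in knockout (13.7 CPM) than in WT glands (26.8 CPM), and on LID it was 8.41 against 4.85 CPM. The part of these markers in the Tnfsf11 values was not tested.

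Ptgdr ranged widely within groups. WT(ND) mice were at 1.57, 0.337, 10.9 and 1.29 CPM and WT(LID) mice at 2.31, 4.55, 2.75 and 4.56 CPM. The knockout mice were at 30.5, 59.3, 82.1 and 33.9 CPM on ND and at 38.3, 65.9, 75.4 and 56.5 CPM on LID, and the diets overlapped. Group means were 3.53 ± 4.96 CPM in WT(ND) (1.06 ± 0.65 without replicate 3, n = 3), 3.54 ± 1.18 in WT(LID), 51.5 ± 24.2 in Glis3-Pax8Cre(ND) and 59.0 ± 15.8 in Glis3-Pax8Cre(LID). Its log2 genotype difference was nearly equal on the 2 diets, 4.06 (standard error 0.82) on LID and 3.89 (0.82) on ND, but the latter was 5.58 (0.57) without WT(ND) replicate 3.

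No diet effect on Ptgdr was called with all 16 mice, at a log2 fold change of 0.02 in WT mice (95% interval -1.60 to 1.65, adjusted p = 0.986) and 0.19 in knockout mice (-1.36 to 1.75, adjusted p = 0.868). Without WT(ND) replicate 3 Ptgdr was higher on LID in WT mice (1.71, 0.65 to 2.78, adjusted p = 0.0153), while in knockout mice it was at 0.18 (-0.70 to 1.06, adjusted p = 0.775). Ptgdr overlaps the pseudogene Gm16976 on the opposite strand, which has no row in the table.

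AU015791 was nearly silent in WT(ND) glands, at 0.112, 0.0587, 0.0989 and 0.130 CPM, which stand for 8, 4, 7 and 58 read pairs. In WT(LID) it was at 11.1, 9.11, 4.78 and 5.55 CPM. Knockout glands were at 6.59, 3.09, 6.99 and 8.21 CPM on ND and at 3.17, 6.52, 8.03 and 9.51 CPM on LID. The latter 3 groups overlapped, and each mouse in them lay above all WT(ND) mice, WT(ND) replicate 3 included. Means were 0.100 ± 0.030, 7.64 ± 2.99, 6.22 ± 2.20 and 6.81 ± 2.71 CPM in this order. The log2 genotype difference was 5.86 (standard error 0.46) on ND and -0.17 (0.36) on LID, so the rise without GLIS3 was there on ND and was not seen on LID.

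In WT mice LID raised AU015791 by a log2 fold change of 6.16 (95% interval 5.17 to 7.16, adjusted p = 1.56e-07), 76.4 times by the means. In knockout mice the log2 fold change was 0.13 (-0.63 to 0.90, adjusted p = 0.813). AU015791 is thus the reverse of Cck, with a large diet effect in WT glands and none called in knockout glands. The diet effect in knockout glands minus that in WT glands was -6.03 log2 units (standard error 0.57), which was not tested.

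**Figure D3:**
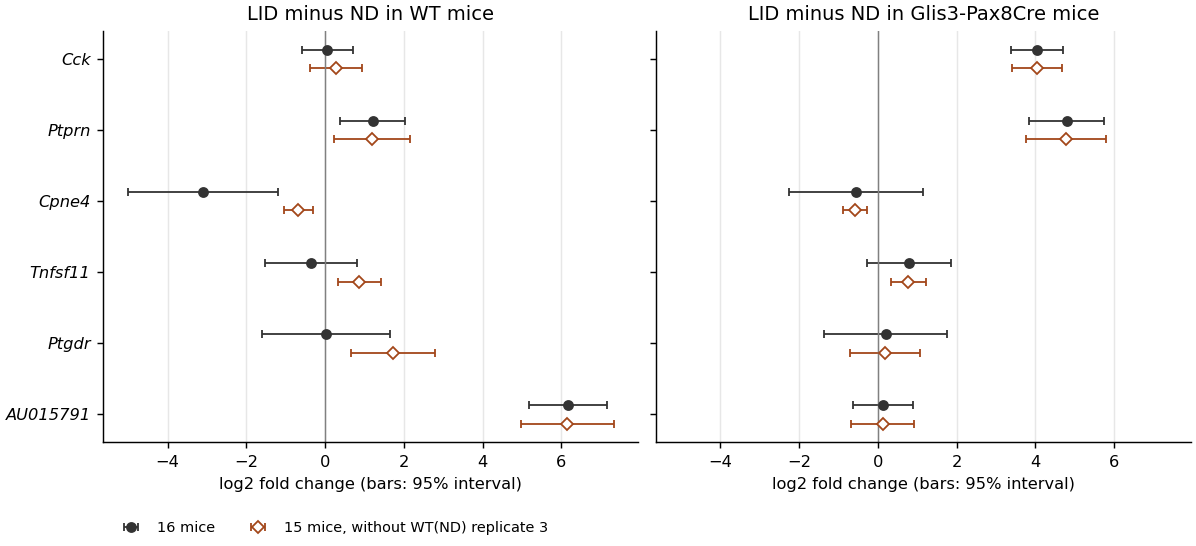
Log2 fold change of LID over ND within WT mice (left) and within Glis3-Pax8Cre mice (right), with 95% intervals, from the fit of 16 mice (filled) and without WT(ND) replicate 3 (open). Cck and Ptprn rise by 4.04 and 4.80 in knockout mice, AU015791 rises by 6.16 in WT mice, and the intervals of Cpne4, Tnfsf11 and Ptgdr narrow when that library is left out.

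Counted together, LID changed 3 of the 6 genes in WT mice (AU015791 and Ptprn higher, Cpne4 lower), where 41.7% of all genes were called, and 2 of 6 in knockout mice (Cck and Ptprn higher), where 25.4% were called. These shares are close enough to the background that the counts alone are no result about the genes. Without WT(ND) replicate 3 the count in WT mice was 4 (AU015791, Tnfsf11 and Ptgdr higher, Cpne4 lower), where 38.1% of all genes were called. In knockout mice it was also 4, with Tnfsf11 higher and Cpne4 lower besides Cck and Ptprn, where 25.8% were called. The block within the 8 knockout mice also called 4, where 18.1% of all genes were called.

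Compared per kilobase of annotated exon, Ptprn had the highest mean level of the 6 genes in every group, at 9.34 CPM per kb in WT(ND) and 1048 CPM per kb in Glis3-Pax8Cre(LID). In the latter group Cck came next at 36.3 CPM per kb, followed by Cpne4 at 19.7, Ptgdr at 18.5, Tnfsf11 at 7.62 and AU015791 at 4.67 CPM per kb. Cpne4 and Ptgdr, neighbours in that order, differed by less than the SD of Ptgdr (4.97 CPM per kb). In WT(LID) the order was another, with AU015791 in second place at 5.25 CPM per kb and Tnfsf11 last at 0.217.

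The pattern over the 16 mice was compared with that of 11674 genes with a mean of at least 5 CPM, by the root mean square distance between log2 CPM values centred on each gene's mean. These are the values the 6 genes were chosen on, so nearness among them follows in part from the choice and the distances are a description only. Ptprn was the gene nearest to Cck of all, and Cck the nearest to Ptprn, at a distance of 0.64 log2 units. The next were Hp, which encodes haptoglobin, at 0.96 from Cck and 1.11 from Ptprn, then Sftpb (surfactant protein B) for Cck at 1.02 and Pthlh (parathyroid hormone-related protein) for Ptprn at 1.22. On LID the mean of Hp was 152 CPM with and 2086 CPM without functional GLIS3. Sftpb is a lung gene, and its mean on LID was 4.85 CPM with and 195 CPM without functional GLIS3. Of 7 markers of airway or lung epithelium, 3 were called higher and 1 lower in knockout than in WT glands on LID (median log2 fold change 2.76). Of all genes, 14.9% were higher and 15.4% lower there. The summed level of the 7 markers on LID ran from 4.18 to 71.3 CPM in the knockout mice, with a median of 7.19 CPM. For the WT mice the sums were 2.55 to 7.53 CPM, with a median of 4.11 CPM. Sftpb is not among the 7 markers, so its level cannot be read from these sums. The part of these markers in the likeness was not tested.

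Cpne4, Tnfsf11 and Ptgdr were also near each other. Tnfsf11 was the gene nearest to Cpne4 (0.95), with Rbm11 (1.02) and Ptgdr (1.21) next. Ptgdr was the nearest to Tnfsf11 (0.77), ahead of Esp8 (0.82) and Col25a1 (0.86), and Esp8 (0.63) preceded Tnfsf11 and Slc34a2 (0.90) for Ptgdr. These distances take in WT(ND) replicate 3, which was high for all 3 genes. AU015791 had no near partner among the other 5; the genes nearest to it were F10, coagulation factor X, at 1.01, Kcne1, a potassium channel subunit, at 1.06 and Dapl1 at 1.13. The median distance from AU015791 to all genes was 2.55.

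The genes next to the 6 on the chromosome did not follow them as a rule. Ptprn (chr1:75247041-75264208, mm10, minus strand) lies 7.99 kb from Resp18, another dense-core vesicle gene, which differed between genotypes by -0.13 log2 units on LID (adjusted p = 0.728) and was lower in knockout glands on ND (-0.92, adjusted p = 0.0143). Dnajb2, a chaperone gene on the other side of Ptprn, 1.35 kb away, was lower in knockout glands on LID (-0.37, adjusted p = 0.0221). Trak1, next to Cck (chr9:121489824-121495694, minus strand), Mrpl3, next to Cpne4 (chr9:104566676-105034544, plus strand), and Akap11, next to Tnfsf11 (chr14:78277446-78308043, minus strand), had genotype differences between -0.13 and 0.14 on LID, with adjusted p from 0.261 to 0.485. The rows nearest to Ptgdr (chr14:44851235-44859375, minus strand) were not tested for lack of counts.

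AU015791 (chr12:105513433-105515248, plus strand) has a neighbour with a related pattern. Bdkrb2, the bradykinin B2 receptor gene, 47.9 kb above it, had means of 2.89 and 9.66 CPM in WT and knockout glands on ND and of 89.9 and 65.3 CPM on LID. Its log2 genotype difference was 1.74 on ND (adjusted p = 0.00924) and -0.46 on LID (adjusted p = 0.401). LID raised it by 4.98 in WT mice (adjusted p = 1.56e-06) and by 2.78 in knockout mice (adjusted p = 0.000323), so unlike AU015791 it also rose with diet in knockout glands. D430019H16Rik, 20.3 kb below AU015791, fell with LID in WT mice (-1.45, adjusted p = 4.47e-06) and in knockout mice (-0.95, adjusted p = 0.00053).

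The partners of the 6 genes were read from 8 lists of 99 genes, of which 89 could be tested, with the 6 genes left out. In knockout against WT glands 8 were higher and 17 lower on LID, where 14.9% of all genes were higher and 15.4% lower, and 15 were higher and 23 lower on ND, where the shares were 10.3% and 9.25%. LID raised 23 and lowered 35 of them in WT mice, against 20.9% and 20.8% of all genes, and raised 5 and lowered 28 in knockout mice, against 13.1% and 12.3%. With library size alone as the scaling the counts on LID were 10 higher and 9 lower by genotype. The count lower on LID was 26 without Glis3-Pax8Cre(ND) replicate 4, and the count higher on ND was 9 without WT(ND) replicate 1, 2 or 4.

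**Figure D4:**
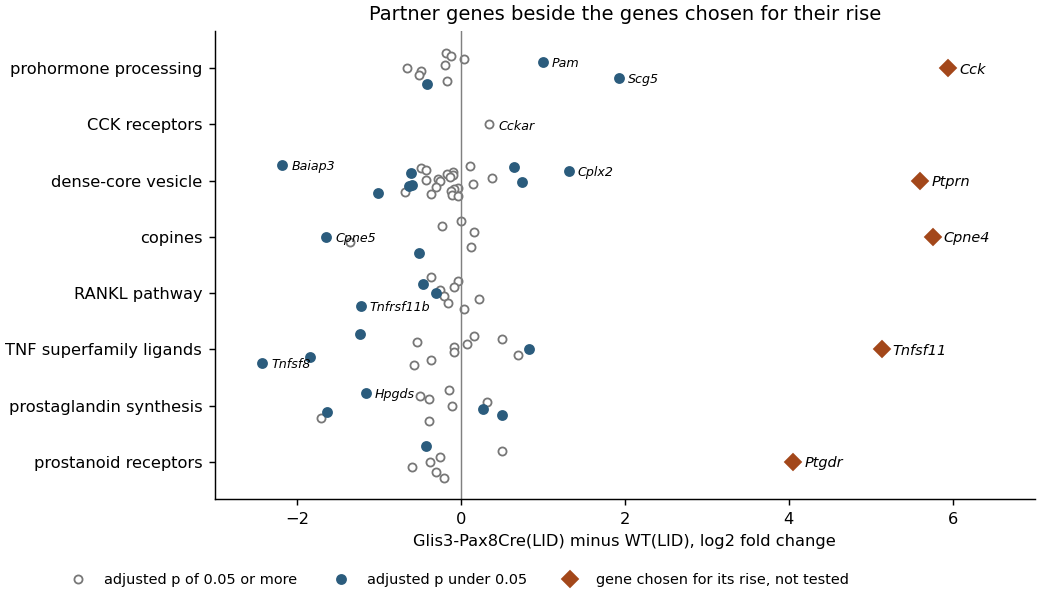
Log2 fold change of Glis3-Pax8Cre(LID) over WT(LID) for the tested genes of the 8 partner lists (circles, filled where the adjusted p is under 0.05) and for 5 of the genes chosen for their rise (diamonds, not tested). The partner genes lie between -2.42 and 1.93. The 5 chosen genes lie between 4.06 and 5.95, a gap that follows from their choice on these values, and AU015791, at -0.17, is not drawn.

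Of 28 tested dense-core vesicle genes besides Ptprn, 3 were higher and 5 lower in knockout glands on LID (median log2 fold change -0.15), and 2 were higher and 12 lower on ND (-0.43). LID raised 3 and lowered 18 in WT mice, and raised 1 and lowered 10 in knockout mice. Under library size alone the counts by genotype on LID were 3 and 3, with a median of 0.00, and 3 and 10 on ND, and LID lowered 17 in knockout mice. Ptprn2, the paralogue of Ptprn, was at 8.05, 8.28, 9.47 and 9.09 CPM in the knockout mice on LID and at 14.4, 13.7, 14.9 and 10.1 CPM in the WT mice (log2 fold change -0.60, adjusted p = 0.0126), and was lower in knockout glands on ND too (-1.13, adjusted p = 0.00041). Baiap3, which encodes a protein of vesicle trafficking, was lower in knockout glands on LID (-2.18, adjusted p = 1.54e-07), as was Syt7, a calcium sensor of exocytosis (-1.01, adjusted p = 6.27e-05). Cplx2, a complexin that acts on vesicle fusion, was higher in knockout glands by 1.31 on LID (adjusted p = 0.000126) and 0.86 on ND (adjusted p = 0.00675), and Slc18a1, a vesicular monoamine transporter, by 0.74 (adjusted p = 6.45e-05) and 0.31 (adjusted p = 0.0497), the latter call being lost under 18 of 25 alternatives (0.0162 to 0.263).

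Many of these genes are also expressed by C-cells and parathyroid cells, which a dissected gland can hold. The summed level of 7 C-cell markers had medians of 7830 and 4915 CPM in WT and knockout glands on ND and of 2735 and 2539 CPM on LID, with ranges of 7513 to 9835, 3556 to 6040, 2562 to 3937 and 1524 to 3468 CPM. For 5 parathyroid markers the medians were 9943, 6271, 2437 and 2357 CPM in the same order, with ranges of 6970 to 12694, 5693 to 8871, 1717 to 3810 and 453 to 3583 CPM. Chga is in both marker lists and also among the dense-core vesicle genes, and Chgb is in the C-cell and vesicle lists. Chga alone had means of 4809 and 2875 CPM in WT and knockout glands on ND and of 1296 and 929 CPM on LID. The sums are therefore not independent of each other or of the vesicle genes. No marker of either list was at 0 in a whole group. By genotype on LID 1 of 7 C-cell markers was called, as lower, and of the 5 parathyroid markers 1 was called higher and 1 lower. On ND 1 C-cell marker was higher and 4 were lower in knockout glands, and no parathyroid marker was called. LID raised 1 and lowered 5 C-cell markers in WT mice and lowered 3 in knockout mice. It lowered 5 parathyroid markers in WT mice and 4 in knockout mice. Of all genes, LID raised 20.9% and lowered 20.8% in WT mice, and raised 13.1% and lowered 12.3% in knockout mice. By genotype, 14.9% of all genes were higher and 15.4% lower in knockout glands on LID, and 10.3% and 9.25% on ND. On LID the ranges of the genotypes overlapped for both lists, and the part of these cells in the Cck and Ptprn values was not tested.

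Among 11 prohormone processing genes, 2 were higher in knockout glands on both diets, Scg5 and Pam. Scg5, which encodes 7B2, the chaperone of prohormone convertase PC2, was at 342, 348, 352 and 359 CPM in WT(LID) and at 1345, 1441, 1311 and 1253 CPM in the knockout mice on LID, higher by 1.93 log2 units (adjusted p = 3.94e-07), and it was higher by 1.93 on ND (adjusted p = 2.65e-06). It rose with LID in both genotypes, by 0.82 in WT (adjusted p = 0.000534) and 0.83 in knockout mice (adjusted p = 0.00129). Pam, whose enzyme amidates peptide hormones such as cholecystokinin, was higher by 1.00 on LID (adjusted p = 0.000314) and 0.97 on ND (adjusted p = 0.00117), with no diet effect called in either genotype with all 16 mice. Without WT(ND) replicate 3 its rise with LID in WT mice was called (0.39, adjusted p = 0.0289). Tpst2, a tyrosine sulphotransferase, was lower in knockout glands on LID (-0.41, adjusted p = 0.00768, or 0.0693 under library size alone). In all, 2 genes of the list were higher and 1 lower on LID, and 2 were higher and 4 lower on ND.

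Of the receptors for the Cck product, Cckar was measured and Cckbr was not tested, at 0.024 CPM or less in every mouse. Cckar was at 20.3, 15.4, 87.2 and 14.7 CPM in WT(ND), again highest in WT(ND) replicate 3, while the knockout mice on ND had 31.0, 50.7, 44.6 and 27.0 CPM. On LID it was at 2.54, 2.42, 2.59 and 1.78 CPM in WT and 2.93, 3.48, 3.21 and 2.27 CPM in knockout mice. LID lowered Cckar in WT mice (log2 fold change -3.88, adjusted p = 7.14e-05) and in knockout mice (-3.69, adjusted p = 0.000282), the opposite direction to that of Cck in the latter. No genotype difference was called on LID (0.35, adjusted p = 0.652) or, with all 16 mice, on ND (0.16, adjusted p = 0.848). The ND value rested on WT(ND) replicate 3. The other 3 WT(ND) mice had a mean of 16.8 ± 3.02 CPM (SD, n = 3) and lay below all 4 knockout mice, and without that library Cckar was higher in knockout glands on ND by 1.21 (adjusted p = 0.00114), while the fall with LID in WT mice was -2.84 (adjusted p = 3.47e-07).

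Of 7 tested copine genes besides Cpne4, 2 were called by genotype on LID, both lower in knockout glands, Cpne5 (log2 fold change -1.64, adjusted p = 9.41e-05) and Cpne8 (-0.51, adjusted p = 0.0157). On ND 1 was higher and 1 lower, and LID raised 4 and lowered 2 in WT mice and lowered 1 in knockout mice.

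RANKL binds RANK and the decoy receptor osteoprotegerin. Tnfrsf11a, which encodes RANK, had means of 5.38 and 4.49 CPM in WT and knockout glands on ND and of 3.19 and 2.86 CPM on LID. No difference between genotypes was called (log2 fold change -0.16 on LID, adjusted p = 0.378, and -0.26 on ND, adjusted p = 0.159), and it fell with LID in WT (-0.75, adjusted p = 0.000229) and in knockout mice (-0.65, adjusted p = 0.00185). Tnfrsf11b, which encodes osteoprotegerin, was at 0.280, 0.147, 0.240 and 0.200 CPM in WT(ND) while the knockout mice on ND had 0.502, 0.648, 0.775 and 2.09 CPM. On LID it was at 2.32, 1.02, 1.04 and 2.52 CPM in WT and 0.777, 0.781, 0.545 and 0.861 CPM in knockout mice. It was therefore higher in knockout glands on ND (2.24, adjusted p = 0.00272) and lower on LID (-1.22, adjusted p = 0.0353), and its rise with LID was called in WT mice (2.99, adjusted p = 8.11e-05) and not in knockout mice (-0.46, adjusted p = 0.435).

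Of the 11 genes of the RANKL pathway, 3 were called by genotype on LID, all lower in knockout glands, which besides Tnfrsf11b were Map3k14, the kinase NIK (-0.46, adjusted p = 0.00551), and Nfkb2 (-0.30, adjusted p = 0.0426), both of the non-canonical NF-kappa B pathway. These 3 calls were lost under library size alone (adjusted p = 0.0579, 0.0800 and 0.283 in this order), as was that of Cpne8 (0.109). The call of Tnfrsf11b on LID was also lost without WT(LID) replicate 1 or 4 or any 1 Glis3-Pax8Cre(LID) mouse (adjusted p up to 0.114), that of Nfkb2 without any 1 WT(LID) mouse, Glis3-Pax8Cre(LID) replicate 2 or 4 or Glis3-Pax8Cre(ND) replicate 1, or with no filter on low counts, and that of Cpne8 without WT(LID) replicate 4. On ND 1 was higher and 3 lower. Of 13 tested ligand genes of the TNF superfamily besides Tnfsf11, 1 was higher on LID, Tnfsf13 (0.83, adjusted p = 0.00504), and 3 were lower, Tnfsf8 (-2.42, adjusted p = 0.00278), Tnfsf15 (-1.84, adjusted p = 0.00428) and Eda (-1.23, adjusted p = 0.000349), with Tnfsf8 and Tnfsf15 below 1 CPM in the mean of every group.

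Prostaglandin D2, the ligand of the Ptgdr product, is made by a pair of synthases. Hpgds, the haematopoietic prostaglandin D synthase, was at 15.4, 19.3, 20.3 and 22.3 CPM in WT(LID) and at 9.17, 8.49, 9.47 and 7.52 CPM in the knockout mice (log2 fold change -1.16, adjusted p = 0.000635), and was higher in knockout glands on ND (0.68, adjusted p = 0.0319), a call lost under 7 of 25 alternatives, among them without WT(ND) replicate 3 (0.58, adjusted p = 0.0652). Ptgds, the lipocalin-type synthase, had means of 5.67 and 1.37 CPM in WT and knockout glands on ND and of 1.38 and 1.06 CPM on LID, and was lower in knockout glands on ND (-2.09, adjusted p = 0.000203), while on LID it was at -0.38 (adjusted p = 0.325). Ptgdr2, the other receptor for prostaglandin D2, was not tested, at 0.125 CPM or less in every mouse.

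Among 11 tested genes of prostaglandin synthesis, 2 were higher and 2 lower in knockout glands on LID, and 5 were higher and 1 lower on ND. Macrophages and endothelial cells also make prostaglandins. Of 6 macrophage markers 6 were higher in knockout glands on ND (median log2 fold change 0.71) and 1 was higher on LID (0.19), with sums of 162 to 240 CPM in WT(ND), 274 to 326 in Glis3-Pax8Cre(ND), 214 to 233 in WT(LID) and 194 to 261 in Glis3-Pax8Cre(LID). Of 5 endothelial markers 4 were lower in knockout glands on LID (-1.38) and 2 higher on ND (0.36), with sums of 459 to 580, 598 to 832, 1225 to 1390 and 552 to 712 CPM in the same order. Of all genes, 10.3% were higher and 9.25% lower in knockout glands on ND, and 14.9% and 15.4% on LID. No marker of these lists was at 0 in a whole group, and their part in the values of the prostaglandin genes was not tested. Ptgs1, cyclooxygenase 1, was higher by 0.50 on LID (adjusted p = 0.0321) and 1.51 on ND (adjusted p = 4.59e-05), and Ptges3, a prostaglandin E synthase, by 0.27 on LID (adjusted p = 0.0488). The calls on LID were lost under 18 of 25 alternatives for Ptges3 (adjusted p from 0.0170 to 0.156) and under 6 of 25 for Ptgs1, namely without any 1 WT(LID) mouse or without Glis3-Pax8Cre(LID) replicate 2 or 3 (0.00375 to 0.120 over all 25). Ptgis, the prostacyclin synthase, was lower on LID (-1.63, adjusted p = 0.00125). Of 7 tested prostanoid receptor genes besides Ptgdr, 1 was called on LID, Ptger1 (-0.43, adjusted p = 0.0152, or 0.117 under library size alone), and 2 were higher and 1 lower on ND.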

How the data were processed

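Thyroid RNA was sequenced in 16 mice. The authors dropped pairs in which either read had a mean base quality of 20 or less, aligned the rest to mm10 by STAR 2.5 and counted them per RefSeq gene with featureCounts 1.5.0-p1 without regard to strand; the deposited values are raw counts. The instrument of each library (NextSeq or NovaSeq) is not given, so it could not be modelled. Counts were analysed with edgeR 4.0.16 in R 4.3.3: filterByExpr, TMM, a robust quasi-likelihood fit with a mean for each of the 4 groups over all 16 mice, and Benjamini-Hochberg adjustment over 16630 genes, called at an adjusted p under 0.05. The calling was tested on simulated data. DESeq2 1.42.0, other scalings, filters and thresholds, Tg left out, the 8 mice of a comparison, a replicate block and each mouse left out in turn were alternatives.

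The genes, lists and the naming rule were chosen with earlier results of these data known. Besides the 6 genes and their direct partners, the text names for each of them the 3 genes of nearest pattern and the neighbouring rows, and in each list up to 4 genes called by genotype on LID with the largest change. Positions are from GENCODE and the files (mm10). Replicate numbers were not stated to mark mice handled together. Over genes, deviations of same-numbered mice correlated from 0.21 to 0.65 between the knockout groups, but from -0.52 to 0.14 in the other comparisons. The main fit did not pair mice, so its diet values for knockout mice leave this correlation out. Only the alternatives with a replicate block took same-numbered mice as pairs. Intervals cover the spread between mice, and the labels do not say how the mice of a group were related.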

Additional observations from a re-analysis of the deposited data

Results flagged for a closer look

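In 3 of 24 groups of 4 mice (each gene in each group), a single mouse lay far from the others, by the gap to its nearest neighbour over the range of the group; chance alone passes the limit of 0.829 in about 1 group in 20. All 3 cases were WT(ND) replicate 3, high for Cpne4 (ratio 0.987, 59.1 CPM against 2.74 to 3.49), Tnfsf11 (0.954, 1.75 CPM against 0.225 to 0.294) and Ptgdr (0.884, 10.9 CPM against 0.337 to 1.57). Placed between the mean of the other WT(ND) mice (0) and that of Glis3-Pax8Cre(ND) (1) on the log2 scale, this library was at 0.75 for Cpne4, 0.63 for Ptgdr, 0.52 for Tnfsf11 and 0.37 for Cck, and at -0.03 for Ptprn and 0.01 for AU015791. The reason was not tested.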

How the results depend on the processing

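The rise of Cck and Ptprn with LID in knockout glands and of AU015791 in WT glands passed the threshold under every alternative that could be fitted; with at least 10 counts in every mouse AU015791 was filtered out. The call of Ptprn in WT mice was lost when some single mice were left out. That of Cpne4 in WT mice held with each mouse left out in turn (adjusted p from 0.00549 to 0.0359). It was lost under other fits given below. With each mouse left out in turn, the genes changed by LID numbered 2 to 4 in either genotype, the median genotype difference of the 6 genes ranged from 3.20 to 5.41 on ND, and the median difference of the diet effects from 0.0051 to 2.18, where 5.41 and 0.0051 arose without WT(ND) replicate 3. The latter median was 2.52 with at least 10 counts in every mouse, where it covers 5 genes. In these fits the WT diet effect ran from -0.10 to 0.28 for Cck, from -0.35 to 1.71 for Ptgdr and from -0.69 to 0.87 for Tnfsf11, and the knockout effect from -0.095 to 0.37 for AU015791. Partner genes lower in knockout on LID numbered 13 to 26 and those higher on ND 9 to 17. With library size alone, which moved the median of all genes by 0.158, 0.143, -0.185 and -0.166 (genotype on LID and on ND, diet in WT and in knockout mice), the diet effect turned to -0.10 for Cck and -0.16 for Ptgdr in WT and -0.013 for AU015791 in knockout mice, and there were 9 partner genes lower in knockout on LID, 15 higher with LID in WT and 3 in knockout mice. In the 8 mice of a comparison alone, the call of Cpne4 in WT mice was lost (adjusted p = 0.0570), and partner genes numbered 7 higher in knockout on ND, and 3 higher and 17 lower with LID in knockout mice. With the replicate block in all 16 mice it was also lost (-2.17, adjusted p = 0.0627), and no other call of the 6 genes changed. With the replicate block within the 8 mice, 4 of the 6 genes changed with LID in knockout mice, the median genotype difference on ND was 4.59, Tnfsf11 was at 0.15 in WT mice, and partner genes numbered 6 higher on ND by genotype and 3 higher with LID in knockout mice. The call of Cpne4 in WT mice was lost there too (-1.58, adjusted p = 0.192). The replicate block without WT(ND) replicate 3, chosen after seeing the data, gave 4 genes changed in knockout mice, 5.24 for the median on ND, 0.11 for the difference of diet effects and 0.78 for Tnfsf11 in WT mice. At an adjusted p under 0.01 with a fold change over 2, LID changed 1 of the 6 genes in WT mice (AU015791) and 2 in knockout mice, and partner genes numbered 3 higher and 8 lower by genotype on LID, 5 and 9 on ND, 4 and 18 by diet in WT mice and 1 and 8 in knockout mice. The causes of these shifts were not tested. A count of 0 allows up to 3 counts, and the shallowest library, at 13892352 read pairs, limits the genes near that level.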
